A study of Mus musculus with 17 samples.

Results

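The genes described here encode the machinery of oxidative phosphorylation (OXPHOS): the 4 complexes of the respiratory chain and the ATP synthase. Members were the rows of the count table whose symbols begin with mt-Nd, mt-Co, mt-Cytb, mt-Atp, Nduf followed by a, b, c, s or v, Uqcr, Cox4 to Cox8 or Atp5, together with Cyc1, Sdha, Sdhb, Sdhc and Sdhd. This gave 113 of 23719 rows, 13 encoded in mitochondrial DNA (mtDNA) and 100 in the nucleus. Poly(A)-selected RNA of colon tissue from male C57BL/6 mice aged 32 to 34 weeks was sequenced, with no layer of the gut wall named. The 9 Control mice drank water, and the 8 GWI mice, a model of Gulf War illness, received pyridostigmine bromide (PB), which reversibly blocks acetylcholinesterase, by mouth in their water for 7 days at 2 mg/kg, followed by a recovery of 21 days. Tissue of both groups was from day 30. Total counts per mouse lay between 16293537 and 20741212.

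The respiratory chain sits in the inner mitochondrial membrane. Complex I takes electrons from NADH and complex II from succinate, both hand them to ubiquinone, complex III passes them to cytochrome c, and complex IV gives them to oxygen; the proton gradient that complexes I, III and IV build drives ATP synthesis by complex V. Complex II is encoded in the nucleus alone, whereas the other complexes combine subunits from both genomes, so their assembly draws on transcription in the nucleus and in the mitochondrion. In the colon, epithelial cells burn butyrate from the microbiota through this chain, and the muscle layers draw on it for contraction.

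Some libraries and tissue markers stood apart and are given first. Control replicate 9 had the highest level of any Control mouse for 68 of the 103 members tested and the lowest Control level for 12. Among small intestine markers, Fabp6, Anpep and Apoa1 were higher in both Control replicates 6 and 7 than in any other mouse: Apoa1 was at 28.7 and 133 CPM (counts per 10⁶ counts of the scaled library), and at most 1.665 CPM elsewhere. In both mice Fabp2, Slc10a2, Alpi and Lct lay within the range of the other mice. Fabp2 and Slc10a2 were highest in Control replicate 9, as was the sum of the list, at 2948 CPM. Sis was highest in replicate 7 but within the range of the others in replicate 6, and Apoa4 and Lct were under 1 CPM in every mouse. Of 10 smooth muscle markers 7 were called lower in GWI colons and none higher; the median of their log2 fold changes was -0.91. With 1 mouse left out 2 to 10 of them were called (medians -1.20 to -0.76), and in 12 of these 17 fits it was 2 or 3; Tagln and Mylk kept the call in all 17. Without both Control replicates 6 and 7 these 2 were called and the median was -0.84. Their summed level was 3690.1 to 23923 CPM in Control mice (median 11584) and 3658 to 11832 CPM in GWI mice (median 5142), and the most abundant of them was Myh11. Of 10 colon epithelium markers 4 were called higher and none lower, with 8 log2 fold changes positive and 2 negative; their sum ran from 16559 to 37560 CPM in Control mice (median 23764) and from 18947 to 37462 CPM in GWI mice (median 27535), led by Car1. Between 3 and 8 epithelial markers were called higher with 1 mouse left out: 8 without Control replicate 1, where the median was 0.65 in place of 0.39, and 3 or 4 in the other fits. Cdx2 and Vil1 were called in all 17 and Muc2 in 6. No marker of either list was at 0 in all mice. The ranges of both sums overlapped between the groups, and the part of these markers in the OXPHOS results below was not tested; in bulk tissue, fewer cells of a type and less RNA per cell cannot be told apart.

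Markers of other tissues were summed in the same way, and their part in the results was not tested either. Counts of called tissue markers, in every list, are to be read beside the 13.5% lower and 13.4% higher of all tested genes. Of 7 tested small intestine markers 2, Fabp6 and Anpep, were lower and 1, Alpi, was higher; the sum ran from 688 to 2948 CPM in Control mice (median 1181) and from 712 to 1499.6 CPM in GWI mice (median 1207), with Fabp2 the most abundant. Without Control replicates 6 and 7 none of the 7 was called, and the log2 fold change of Anpep went from -3.10 to 0.22 and that of Fabp6 from -4.40 to -0.96. Of 6 adipocyte markers 1, Cidec, was called higher, and all 6 log2 fold changes were positive (median 1.03, and 0.57 without GWI replicate 7). The sum of the adipocyte list ran from 54.3 to 232 CPM in Control mice (median 122) and from 79.2 to 653 CPM in GWI mice (median 172), led by Fabp4. Of 2 tested brown adipocyte markers 1, Dio2, was lower and was the most abundant, and the sum ran from 2.84 to 15.2 CPM in Control mice (median 4.22) and from 2.15 to 4.76 CPM in GWI mice (median 2.97). Of 5 plasma cell markers 1, Sdc1, was higher and was the most abundant, and the sum ran from 414 to 996 CPM in Control mice (median 630.4) and from 635 to 1012 CPM in GWI mice (median 770.2). Without those 2 mice the calls of Cidec and Dio2 were lost as well, and that of Sdc1 was kept. Sdc1 and Fabp6 were called in all 17 fits with 1 mouse left out, Anpep in 16, Cidec in 8, Alpi in 7 and Dio2 in 6. None of the listed markers was at 0 in all mice.

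Of the 103 members tested, 48 were called lower at an adjusted p under 0.05 (edgeR quasi-likelihood test, Benjamini-Hochberg adjustment over 14146 genes), where 13.5% of all tested genes were called lower, and 55 were not called. By complex the lower calls were 26 of 45 members in complex I, 6 of 10 in III, 7 of 18 in IV and 8 of 18 in V, with 1 of 8 assembly factors of complex I and none of 4 members of complex II. None was called higher by that test, where 13.4% of all genes were; at an unadjusted p under 0.05 it was 1 member, Sdha, and the DESeq2 Wald test and limma-voom called 1 each, Sdha and Ndufs1. The median log2 fold change (GWI against Control) was -0.32 over the 90 nuclear members and -0.72 over the 13 mtDNA members, beside -0.06 over all tested genes. With limma-voom and sample weights the mtDNA median was -0.24 and the nuclear one -0.31. Every GWI mouse lay below the Control median for 67 of the 103 members, where 18.3% of all tested genes did so. Complete separation was rare: every GWI mouse lay below every Control mouse for 2 members, Cox7c and Atp5l, named after their values were seen, where 0.523% of all tested genes did so.

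The count was also taken without the libraries that stood apart. Without Control replicate 9, 45 members were called lower, 43 of them among the 48, beside 15.8% of all genes; none was called higher, beside 16.1%. Without Control replicates 6 and 7, 53 were called lower, 46 of them shared, beside 9.56% of all genes. Removing each library's trend of counts with GC content and transcript length left 9 of 102 members called lower (8.82%), beside 11.8% of all genes, 32 of 102 log2 fold changes positive, and medians of -0.09 for nuclear and -0.15 for mtDNA members. Such removal takes out any group difference that follows GC content or length, whatever its source, so it cannot tell a technical trend from a biological one. With the smooth muscle score minus the epithelium score as a covariate the count was 63, beside 14.0% of all genes, and the medians were -0.47 for nuclear and -1.34 for mtDNA members, beside 0.03 over all genes. All 13 mtDNA members were called lower in that fit. The score largely followed the groups: the only Controls below 0 were replicates 8 (-0.22) and 9 (-0.76). GWI replicate 8 (0.09) alone of its group was above 0. The fit therefore separates group from score poorly, here and wherever it is used below. Control replicates 8 and 9 also had the highest mtDNA shares of counts, 14.2% and 19.4%, and their weight in this fit was not tested. The 10 members below the filter on low counts, which had at most 6 counts in any mouse, were 7 pseudogenes and Cox6a2, Cox7b2 and Cox8c.

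**Figure D1:**
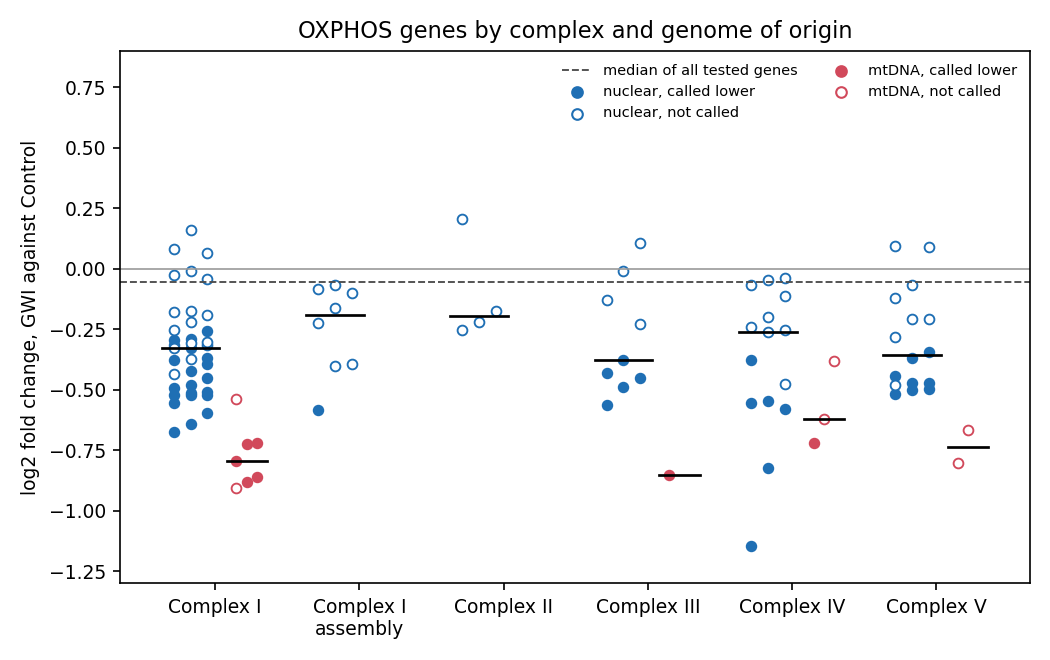
Log2 fold change (GWI against Control, y axis) of the 103 tested OXPHOS genes by complex (x axis), nuclear in blue and mtDNA-encoded in red; filled points were called lower at an adjusted p under 0.05, black bars are medians and the dashed line is the median of all tested genes. Most points lie below the dashed line, and the mtDNA medians lie below the nuclear ones in complexes I, III, IV and V.

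Transcripts of the 13 mtDNA genes took 6.08% to 19.4% of all counts in Control mice (median 10.2%) and 6.24% to 9.73% in GWI mice (median 7.13%). The GWI range lay inside the Control range, and the highest Control value was that of replicate 9. The 100 nuclear members together took 1.5% to 2.30% in Control mice (median 2.02%) and 1.61% to 1.77% in GWI mice (median 1.74%). Here 8 of the 9 Control mice lay above every GWI mouse, and Control replicate 1 lay below them all. The ratio of mtDNA to nuclear OXPHOS counts was 2.95 to 9.61 in Control mice (median 4.46) and 3.52 to 5.85 in GWI mice (median 4.10), again with the GWI mice inside the Control range.

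**Figure D2:**
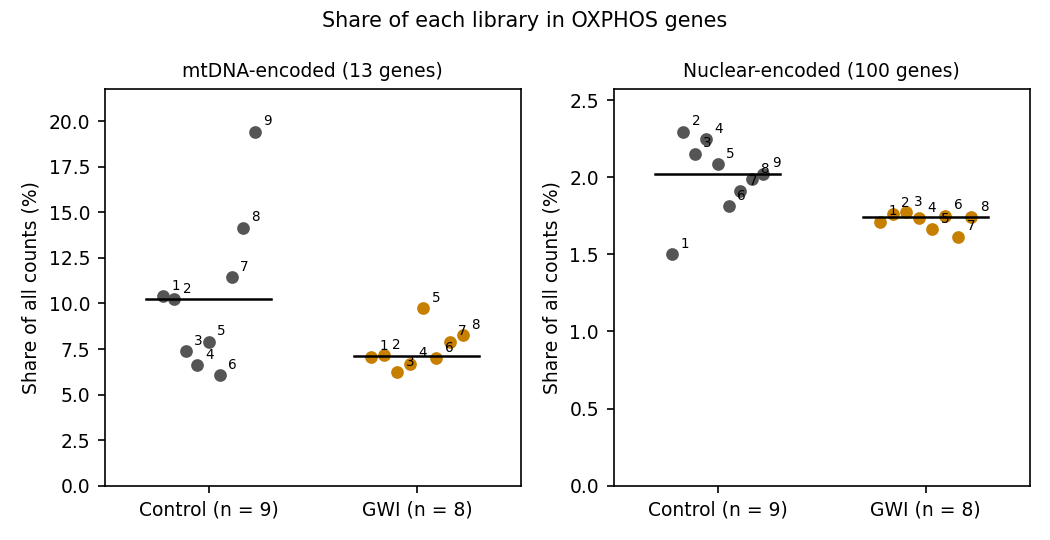
Share of each mouse's counts (percent, y axis) in the 13 mtDNA-encoded genes (left) and the 100 nuclear OXPHOS genes (right) for 9 Control and 8 GWI mice; numbers are replicates and bars are medians. Control replicate 9 is highest on the left at 19.4%, and Control replicate 1 is lowest on the right at 1.5%.

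Mitochondrial DNA encodes 7 core subunits of complex I, which carry its proton channels, and 5 of them were called lower (median log2 fold change -0.79). The level of mt-Nd6 was 1254 CPM at the Control median (956 to 2284) and 797 CPM at the GWI median (567 to 1155). Of the 8 GWI mice 7 lay below every Control mouse (log2 fold change -0.72 ± 0.17 (SE), adjusted p = 0.00665). This gene is the one OXPHOS subunit on the light strand of mtDNA, at chrM:13552-14070 in GRCm38, opposite the end of mt-Nd5, and the strand setting of the counting is not given in the sources used here, so its reads and antisense reads cannot be told apart. The level of mt-Nd1 was 9623 CPM at the Control median (6070.5 to 24355) and 5794 CPM at the GWI median (5154 to 8385). Leaving aside mt-Nd3 and mt-Nd4l, whose levels are uncertain (see the nuclear copies below), mt-Nd1 had the highest level per transcript length in complex I. For mt-Nd1 5 GWI mice lay below every Control mouse (log2 fold change -0.79 ± 0.24 (SE), adjusted p = 0.0212). In Control colons mt-Nd2 lay between 2328 and 5659.8 CPM with a median of 3089, and in GWI colons between 1680.1 and 2782 CPM with a median of 1961. For mt-Nd2 6 GWI mice lay below every Control mouse (log2 fold change -0.72 ± 0.19 (SE), adjusted p = 0.0109), as they did for mt-Nd4 (log2 fold change -0.86 ± 0.25 (SE), adjusted p = 0.0173). For mt-Nd3 it was 5 GWI mice (log2 fold change -0.88 ± 0.23 (SE), adjusted p = 0.0114), and mt-Nd4l (-0.91, adjusted p = 0.0643) and mt-Nd5 (-0.54, adjusted p = 0.0781) did not pass the threshold; each was called lower in 3 of 11 alternative fits. Without Control replicate 9 the log2 fold change of mt-Nd4l was -0.51.

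For the other complexes, mtDNA encodes cytochrome b, the catalytic core of cytochrome oxidase and the proton channel of ATP synthase. In Control colons mt-Cytb lay between 7903 and 35046 CPM with a median of 12074, and in GWI colons between 6609 and 12901 CPM with a median of 7591. Among members of complex III it had the highest level per length, and 5 GWI mice lay below every Control mouse (log2 fold change -0.85 ± 0.27 (SE), adjusted p = 0.027). The level of mt-Co1 was 66165 CPM at the Control median (32172 to 156779) and 52096 CPM at the GWI median (41026 to 66963). Among the members whose levels were ranked (see the nuclear copies below), mt-Co1 was the most abundant per length, at 42825 CPM per kilobase at the Control median. Every GWI value of mt-Co1 lay within the wider Control range, with 4 Control mice above all GWI mice and 3 below (log2 fold change -0.38 ± 0.27 (SE), adjusted p = 0.298). Of the other subunits of complexes IV and V, mt-Co3 passed the threshold (-0.72, adjusted p = 0.0498), as in 6 of 17 fits with 1 mouse left out, and mt-Co2 (-0.62, adjusted p = 0.103), mt-Atp6 (-0.80, adjusted p = 0.101) and mt-Atp8 (-0.67, adjusted p = 0.189) did not. Without Control replicate 9 the log2 fold changes were -0.12 for mt-Co1, -0.33 for mt-Co2, -0.37 for mt-Atp6 and -0.21 for mt-Atp8, and mt-Co3 missed the threshold too (-0.43, adjusted p = 0.0831). No mtDNA member was called once the GC and length trend was removed, and mt-Co1, mt-Co2, mt-Atp6 and mt-Atp8 then had positive log2 fold changes; limma-voom also turned mt-Co1 and mt-Atp8.

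Some mtDNA genes have near-identical copies in the nucleus. A stretch of nuclear chromosome 1, at chr1:24611535-24616197 in GRCm38, is annotated with copies of 7 mtDNA genes. The copies of mt-Co2, mt-Atp6, mt-Co3 and mt-Nd4l match their mtDNA genes in 100% of the aligned bases, as does the copy of part of mt-Nd4 (876 of 1378 bases), and that of mt-Nd3 differs at 1 of 345 bases. Reads that fit both places are not unique, and the deposited counts are of uniquely placed reads. In this table mt-Co3 had 340.0 to 1059 counts per Control mouse and mt-Co1, of which 492 of 1545 bases have a copy, 663282 to 2249352. The values of mt-Co2, mt-Atp6, mt-Co3, mt-Nd3 and mt-Nd4l are uncertain, and their levels were not ranked against those of other genes. The value of mt-Atp8 is uncertain as well. It has no annotated copy but lies between mt-Co2 and mt-Atp6 in mtDNA, and it had 43 to 306 counts per Control mouse. Part of the reads of mt-Nd4 and mt-Co1 may not have been counted either. To show how close a copy is, the first 60 bases of mt-Nd3 and of its copy Gm28438 follow, from the GENCODE transcripts, with the base that differs in capitals (T3C, counted from the first base of the transcript).
mt-Nd3: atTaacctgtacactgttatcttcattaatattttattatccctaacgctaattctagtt
Gm28438: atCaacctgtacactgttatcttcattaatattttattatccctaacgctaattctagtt

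Complex I had the most nuclear members by symbol, and 21 of the 38 tested were called lower (median -0.33). Without Ndufa4, now assigned to complex IV, and its relative Ndufa4l2 it was 20 of 36. Supernumerary subunits, which surround the catalytic core and serve its assembly and stability, made up 17 of these 20 (17 of 29 tested, median -0.37). Of the 36, 11 to 25 were called with 1 mouse left out, and 4 with the GC and length trend removed. Ndufa2 ranged from 79.1 to 156 CPM in Control mice (median 93.4) and from 52.0 to 80.1 CPM in GWI mice (median 62.0). Of the 8 GWI mice 7 were below the lowest Control mouse, and this supernumerary subunit had the smallest p of all members (log2 fold change -0.64 ± 0.13 (SE), adjusted p = 0.00248). The gene overlaps Tmco6 on the opposite strand. In Control colons Ndufa4 lay between 100.44 and 326 CPM with a median of 198, and in GWI colons between 118 and 142 CPM with a median of 138. Ndufa4, first described as a complex I subunit, passed the threshold (log2 fold change -0.55 ± 0.15 (SE), adjusted p = 0.0137), with 8 Control mice above every GWI mouse and 1 below them all; with the GC and length trend removed it was -0.08 (adjusted p = 0.532). Its hypoxia-induced relative Ndufa4l2 was near the detection limit at 0.511 CPM at the Control median and was not called (-0.31, adjusted p = 0.525), with a log2 fold change of -0.13 without Control replicates 6 and 7.

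The 7 nuclear core subunits, which carry the flavin and the iron-sulphur clusters, were split. The lower calls were Ndufs3, Ndufs8 and Ndufv2, 3 of 7, and the median log2 fold change was -0.17. With 1 mouse left out Ndufs3 kept its call in all 17 fits and Ndufs8 and Ndufv2 in 4 each, so that 1 to 3 were called; with the GC and length trend removed none of the 7 was, and the median was 0.01. Ndufs1 and Ndufv1 had log2 fold changes of 0.08 and 0.07, neither past the threshold; limma-voom called Ndufs1 higher, and the fit with the muscle score gave Ndufs1 a log2 fold change of -0.27. These core subunits are named after their values were seen. Across the nuclear members of complex I, log2 fold changes ran from -0.67 (Ndufa5) to 0.16 (Ndufa10).

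The symbol pattern also takes in 8 assembly factors of complex I, which help build it and are not part of the finished complex. Of these only Ndufaf8 was called lower, and the median was -0.19; the DESeq2 Wald test called 3, upper-quartile scaling and the muscle score 4 each, and fits with 1 mouse left out 1 to 4. Ndufaf8 ranged from 18.1 to 36.6 CPM in Control mice (median 23.8) and from 14.0 to 18.9 CPM in GWI mice (median 15.99). For this gene 6 GWI mice lay below every Control mouse, and the call was kept under all 11 alternative fits and with each mouse left out (log2 fold change -0.58 ± 0.12 (SE), adjusted p = 0.00364). Ndufaf2, the assembly factor with the highest level per length, was not called (log2 fold change -0.40 ± 0.15 (SE), adjusted p = 0.0631), and 5 of 11 alternative fits called it lower; Control replicate 9 had the highest of its values, and without it the log2 fold change was -0.26.

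In complex II, which also serves the citrate cycle, none of the 4 subunits was called (edgeR). At an unadjusted p under 0.05, 1 was lower and 1 higher; the DESeq2 Wald test called 1 lower (Sdhc) and 1 higher (Sdha), and limma-voom 2 lower (Sdhc and Sdhd). The edgeR test called 2 lower with the muscle score as a covariate, Sdhb (-0.62, adjusted p = 0.0107) and Sdhd (-0.50, adjusted p = 0.0105), and 2 with upper-quartile scaling (Sdhc and Sdhd). Sdha ranged from 442 to 579.5 CPM in Control mice (median 511) and from 527 to 672 CPM in GWI mice (median 572). Every GWI mouse lay above the Control median for this flavoprotein subunit, yet the ranges overlapped (log2 fold change 0.20 ± 0.09 (SE), adjusted p = 0.0911). The level of Sdhb was 261 CPM at the Control median (196 to 434) and 241 CPM at the GWI median (209.6 to 261). Sdhb, the iron-sulphur subunit (log2 fold change -0.25 ± 0.13 (SE), adjusted p = 0.159), and the membrane anchors Sdhc (log2 fold change -0.17 ± 0.07 (SE), adjusted p = 0.0866) and Sdhd (log2 fold change -0.22 ± 0.11 (SE), adjusted p = 0.122) all had negative log2 fold changes with overlapping ranges; without Control replicate 9 those of Sdhb and Sdhd were -0.15 and -0.13. Whether complex II differs from the other complexes was not tested.

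Complex III had 5 of 9 nuclear members called lower (median -0.38). All 5 were small subunits: Uqcr10, Uqcr11, Uqcrb, Uqcrh and Uqcrq. Uqcrb kept its call in 4 of 17 fits with 1 mouse left out and the others in all 17; with the GC and length trend removed 1 of the 9 was called, Uqcrq. Uqcr10 ranged from 139.9 to 259.8 CPM in Control mice (median 168) and from 119 to 151 CPM in GWI mice (median 129.6). In 7 GWI mice the level was below that of every Control mouse (log2 fold change -0.45 ± 0.11 (SE), adjusted p = 0.00689); the adjusted p was 0.0503 with the GC and length trend removed. The remaining 4 members, named after their values were seen, were the core proteins Uqcrc1 and Uqcrc2 and the catalytic subunits Cyc1 and Uqcrfs1, which carry the haem and the iron-sulphur cluster. Their log2 fold changes were 0.11, -0.13, -0.01 and -0.23. With the GC and length trend removed, Uqcrb, a called member, had a log2 fold change of 0.06 and Uqcrc2 of 0.09. With the muscle score as a covariate Uqcrc2 (-0.67) and Uqcrfs1 (-0.46) were called lower; limma-voom and upper-quartile scaling also called Uqcrfs1.

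In complex IV, cytochrome c oxidase, 6 of 15 tested nuclear members were called lower (median -0.26), or 7 of 16 with Ndufa4. Of the 15 it was 3 to 9 with 1 mouse left out, 10 with the DESeq2 Wald test or upper-quartile scaling, 11 with limma-voom and 1, Cox8b, with the GC and length trend removed. Cox7c ranged from 226 to 547 CPM in Control mice (median 279.8) and from 175 to 224 CPM in GWI mice (median 204). All GWI mice lay below all Control mice, narrowly, for this small membrane subunit (log2 fold change -0.58 ± 0.15 (SE), adjusted p = 0.0093). Its call was lost with the GC and length trend removed (-0.16, adjusted p = 0.16). Of the read-length windows of Cox7c, 24.6% also occur in another annotated gene, so part of its reads may not have been counted. In Control colons Cox4i1 lay between 817 and 1471 CPM with a median of 993, and in GWI colons between 841 and 1098 CPM with a median of 876. Cox4i1, the regulatory subunit, had the highest level per length of the nuclear members and was not called (log2 fold change -0.24 ± 0.12 (SE), adjusted p = 0.14), except by limma-voom.

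Several complex IV subunits exist as pairs, one form common to most tissues and the other restricted to muscle, lung or testis. Cox8b, the heart and skeletal muscle form of subunit VIII, had the largest change of all members. Cox8b ranged from 0.497 to 1.97 CPM in Control mice (median 0.980) and from 0.344 to 0.892 CPM in GWI mice (median 0.484). This was 9 to 38 counts per Control mouse (log2 fold change -1.15 ± 0.29 (SE), adjusted p = 0.00992), and the call was lost with the muscle score as a covariate (-0.33, adjusted p = 0.551). Its common partner Cox8a, at 368 CPM at the Control median, was not called (log2 fold change -0.26 ± 0.10 (SE), adjusted p = 0.0626), but 6 of 11 alternative fits called it lower, the DESeq2 Wald test (adjusted p = 0.0273) among them. Cox4i2, the oxygen-responsive form found in lung and smooth muscle, was also lower at few counts (log2 fold change -0.83 ± 0.29 (SE), adjusted p = 0.0445); 5 of 10 alternative fits and 5 of 17 with 1 mouse left out kept the call, and with the muscle score as a covariate the adjusted p was 0.939.

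Cox7a1, the heart and skeletal muscle form of subunit VIIa, was not called (-0.11, adjusted p = 0.617), whereas the common form Cox7a2 was (-0.55, adjusted p = 0.0273). Cox7a2 ranged from 146 to 452 CPM in Control mice (median 196) and from 136 to 164 CPM in GWI mice (median 152). Control replicate 9 held the highest value, and without it the log2 fold change was -0.34. Of the fits with 1 mouse left out 16 of 17 kept the call, which was lost with the GC and length trend removed (-0.24, adjusted p = 0.13). The related Cox7a2l passed the threshold as well (log2 fold change -0.38 ± 0.13 (SE), adjusted p = 0.0388) but in 7 of the 17. Cox6a1 (-0.07, adjusted p = 0.671), Cox6b1 (-0.26, adjusted p = 0.0655) and the testis form Cox6b2 (-0.05, adjusted p = 0.842) were not called, though 6 of 11 alternative fits called Cox6b1 lower, and the muscle form Cox6a2 had at most 4 counts in any mouse. Of 10 striated muscle markers 4 could be tested and 2, Ckm and Tcap, were lower, neither of them with the muscle score as a covariate; the most abundant was Ckm and none was at 0 in all mice. The 6 untested ones (Myh1, Myh2, Myh4, Tnnt3, Pvalb and Atp2a1) all had a higher mean level in GWI mice, for Myh4 1.48 against 0.344 CPM, and of the other tested ones Acta1 had a log2 fold change of -0.09 and Mylpf of 0.13. The sum of the list was 15.7 to 79.3 CPM in Control mice (median 58.3) and 17.8 to 53.1 CPM in GWI mice (median 29.0), and its part in the values of the muscle isoforms was not tested.

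Complex V had 8 of 16 tested nuclear members called lower (median -0.36): Atp5e, Atp5f1, Atp5g2, Atp5h, Atp5j, Atp5j2, Atp5k and Atp5l. With 1 mouse left out Atp5f1 kept its call in 6 of 17 fits and Atp5j2 in 8, the others in all 17, and 6 to 10 members were called. With the GC and length trend removed it was 2 of 15, Atp5e and Atp5k. The 16 include Atp5s by its symbol alone. That gene is named Dmac2l in RefSeq and was not called (log2 fold change -0.48, adjusted p = 0.12). Of the read-length windows of Atp5g2, 85.2% also occur in another annotated gene, so part of its reads may not have been counted. Atp5e ranged from 118 to 214 CPM in Control mice (median 179) and from 103 to 144 CPM in GWI mice (median 125). Atp5e, the epsilon subunit of the central stalk, was called under all 11 alternative fits and with each mouse left out, although 1 Control mouse lay within the GWI range (log2 fold change -0.47 ± 0.11 (SE), adjusted p = 0.00694). The level of Atp5l was 194 CPM at the Control median (165 to 366) and 153 CPM at the GWI median (123 to 165). These ranges, for a subunit of the membrane part, did not overlap but nearly touched (log2 fold change -0.52 ± 0.13 (SE), adjusted p = 0.0107); 44.6% of its read-length windows occur elsewhere. In Control colons Atp5b lay between 1437 and 1802 CPM with a median of 1622, and in GWI colons between 1471 and 1879 CPM with a median of 1769. Atp5b, the catalytic beta subunit and the nuclear complex V member with the highest level per length, was not called (log2 fold change 0.09 ± 0.09 (SE), adjusted p = 0.465), nor was the alpha subunit Atp5a1 (0.09, adjusted p = 0.451), named after its value was seen. Upper-quartile scaling gave Atp5b a log2 fold change of -0.01.

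**Figure D3:**
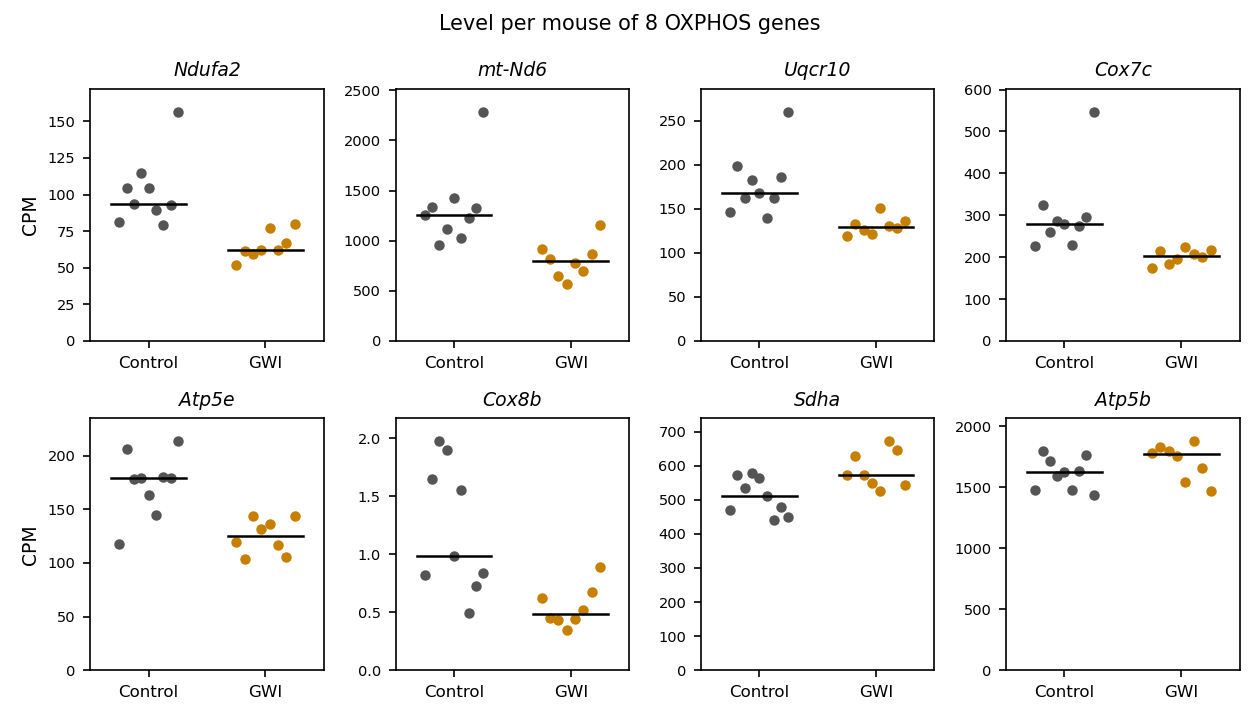
Level in CPM (y axis, from 0) of 8 OXPHOS genes in 9 Control and 8 GWI mice; each point is a mouse and bars are medians. For Ndufa2, mt-Nd6, Uqcr10 and Cox7c most GWI mice lie below the Control mice, and for Sdha and Atp5b the GWI median lies above the Control median.

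In the main comparison calls were more frequent among members with short transcripts. Of 31 nuclear members with a principal transcript under 700 bases, 20 were called lower (median -0.38), and of 18 from 700 to under 1000 bases it was 11 (median -0.43). Of 18 from 1000 to under 1500 bases 5 were called (median -0.27), and of 22 with 1500 bases or more it was 5 (median -0.13); all 7 nuclear members with a positive log2 fold change were in this last class. Over all tested genes the medians of these 4 classes were -0.44, -0.31, -0.19 and -0.01, and 39.5%, 36.2%, 21.2% and 10.9% of the genes were called lower. With the muscle score as a covariate 61.3%, 55.6%, 61.1% and 40.9% of the nuclear members in these classes, from short to long, were called lower, beside 45.3%, 33.9%, 21.6% and 11.4% of all genes. With the GC and length trend removed it was 12.9%, 11.1%, 5.56% and 9.09%, beside 16%, 13.7%, 9.51% and 11.9%. Without Control replicate 9 it was 67.7%, 61.1%, 11.1% and 22.7%, beside 37.8%, 36.4%, 21.8% and 13.6%, and the class from 1000 to under 1500 bases had 2 of 18 called (median -0.15). Across the 89 nuclear members with a length, the main comparison gave a Spearman's rho between length and log2 fold change of 0.43, and across 14038 tested genes 0.17; genes are not independent replicates, and all share the same 17 libraries.

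Once the trends with GC content and length were taken out, the 9 members still called lower were Ndufaf8, Ndufa5, Ndufa2, Atp5e, Uqcrq, Cox8b, Ndufb2, Ndufa13 and Atp5k. The log2 fold change of Ndufa2 was then -0.36 (adjusted p = 0.0141), of Ndufaf8 -0.38 (adjusted p = 0.00937) and of Atp5e -0.26 (adjusted p = 0.0164). Among the 56 tested nuclear members with neither an overlapping gene nor a shared read-length window, 21 were called lower in the main comparison, with a median of -0.27, and 6 with those trends removed, with a median of -0.03.

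**Figure D4:**
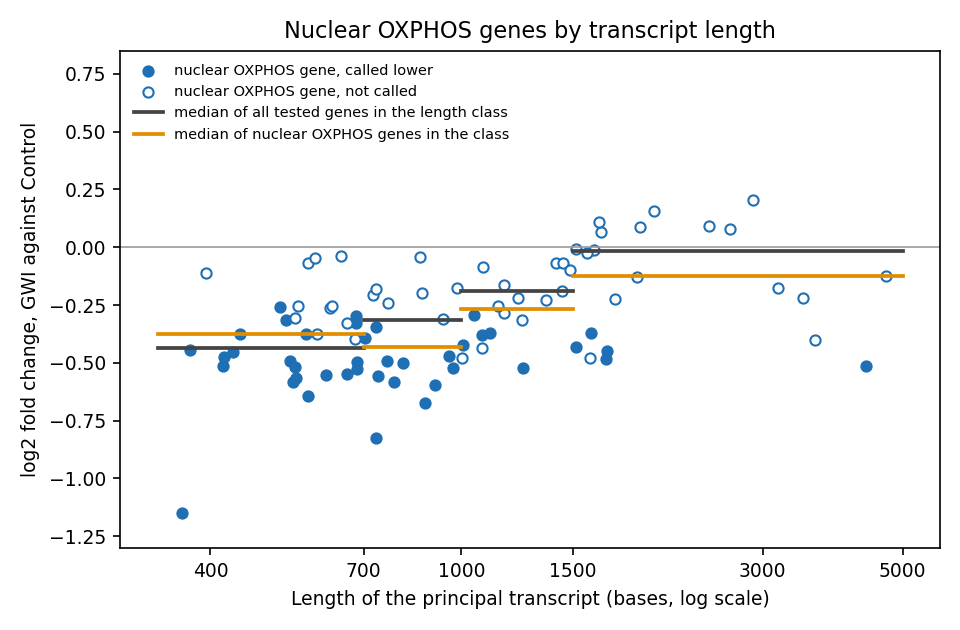
Log2 fold change (GWI against Control, y axis) of 89 nuclear OXPHOS genes against the length of the principal transcript (x axis, bases, log scale); filled points were called lower, and horizontal lines are medians per length class of these genes (orange) and of all tested genes (grey). Medians of both rise toward 0 in the longest class.

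Nuclear members, called or not, were also compared by the letters of their promoters, taken from RefSeq (GRCm38.p6, 250 bases before to 50 after the start). Of 93 nuclear members other than pseudogenes 76 matched, with 81 windows, and 5 motifs were searched on both strands: GCGCATGCG (NRF1), CCGGAAG (ETS family, GABP included), AAGATGGC (YY1), TCAAGGTCA (oestrogen-related receptors) and TATAAA. The motif CCGGAAG was in 22.2% of the member windows against 8.86% of all 32851 windows, GCGCATGCG in 12.3% against 1.75%, and AAGATGGC in 13.6% against 2.75%. TCAAGGTCA was in 2 member windows, or 2.47% against 0.423%, and TATAAA in 8, or 9.88% against 13.6% of all. Windows of called and uncalled members held CCGGAAG in 10 of 38 and 8 of 42 cases, GCGCATGCG in 4 and 6, AAGATGGC in 8 and 3, TATAAA in 5 and 2, and TCAAGGTCA in 0 and 2. A match is a description of letters and not a binding site.

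As examples of called members, the upstream 250 bases of Ndufaf8 (chr11:120098684-120098933, plus strand) and Ndufa13 (chr8:69902021-69902270, minus strand) are shown, the members next to Ndufa2 in p, with those of Atp5e (chr2:174464102-174464351, minus strand) as a complex V example that holds CCGGAAG. Each reads 5′ to 3′ on the strand of the gene, and capitals mark the motif or its reverse complement; none of the 5 motifs lies in these bases of Ndufa13. Ndufa13 ranged from 112 to 222 CPM in Control mice (median 141) and from 86.8 to 119 CPM in GWI mice (median 100.03). Of its GWI mice 6 lay below every Control mouse (log2 fold change -0.52 ± 0.12 (SE), adjusted p = 0.00591). The gene overlaps Tssk6 on the opposite strand, 20.5% of its read-length windows occur in another gene, and its values were seen before it was chosen.
Ndufaf8: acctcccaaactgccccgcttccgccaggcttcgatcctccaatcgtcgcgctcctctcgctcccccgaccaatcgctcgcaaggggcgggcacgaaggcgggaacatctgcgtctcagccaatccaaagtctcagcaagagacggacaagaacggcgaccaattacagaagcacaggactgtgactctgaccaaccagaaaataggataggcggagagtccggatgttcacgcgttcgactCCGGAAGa
Ndufa13: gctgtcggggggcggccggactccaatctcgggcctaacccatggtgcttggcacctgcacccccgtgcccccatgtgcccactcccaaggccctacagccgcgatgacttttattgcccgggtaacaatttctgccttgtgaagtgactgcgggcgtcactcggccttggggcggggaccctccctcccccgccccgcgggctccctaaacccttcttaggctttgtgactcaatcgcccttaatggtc
Atp5e: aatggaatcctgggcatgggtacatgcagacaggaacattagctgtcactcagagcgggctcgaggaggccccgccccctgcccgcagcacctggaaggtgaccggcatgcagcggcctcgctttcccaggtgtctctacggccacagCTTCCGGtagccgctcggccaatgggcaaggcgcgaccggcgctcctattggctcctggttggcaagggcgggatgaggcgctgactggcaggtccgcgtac

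Lists of genes around the chain are given by their counts, to be read beside the 13.5% lower and 13.4% higher of all tested genes. In other fits these shares were 29.5% and 27.6% with limma-voom, 21.2% and 8.58% with upper-quartile scaling, 14.0% and 9.12% with the muscle score as a covariate, 11.8% and 15.4% with the GC and length trend removed and 16.3% and 17.9% without Control replicate 1. Of 36 tested other assembly factors of the chain, 7 were called lower and 2 higher (median -0.09), led by the complex III factor Uqcc2. Fits with 1 mouse left out gave 2 to 12 lower, the 12 without Control replicate 1, and 0 to 3 higher. With the GC and length trend removed Uqcc2 was the 1 still lower, and with limma-voom, upper-quartile scaling or the muscle score 13 were. Uqcc2 ranged from 29.6 to 58.1 CPM in Control mice (median 45.7) and from 26.5 to 35.5 CPM in GWI mice (median 29.6). All GWI mice lay below the Control median, with overlap (log2 fold change -0.58 ± 0.11 (SE), adjusted p = 0.00225).

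Among 33 genes that copy, transcribe and translate mtDNA, 3 were lower and 5 higher (median -0.10), to be read beside the same shares of all genes. Leaving out 1 mouse gave 1 to 8 lower, Slirp alone in 8 of 17 fits and 8 genes without Control replicate 1, and 4 to 6 higher. With the muscle score as a covariate 14 were lower and 3 higher, and with upper-quartile scaling 7 were lower and 3 higher. With limma-voom it was 6 lower and 8 higher, and with the GC and length trend removed 1 lower and 7 higher. The median was 0.11 with limma-voom and 0.007 without Control replicate 9. The level of Polg was 36.8 CPM at the Control median (32.4 to 43.5) and 46.6 CPM at the GWI median (40.4 to 50.6). Polg, the catalytic subunit of the mtDNA polymerase, was higher (log2 fold change 0.32 ± 0.07 (SE), adjusted p = 0.00446), with all 8 GWI mice above the Control median; the adjusted p was 0.102 with the muscle score as a covariate and 0.31 with the GC and length trend removed. In the same list the mtDNA packaging factor Tfam was not called (-0.14, adjusted p = 0.471). The list of biogenesis regulators had 1 lower (Sirt1) and 1 higher of 15 tested (median 0.16), and each kept its call in 6 of 17 fits with 1 mouse left out. Limma-voom called 9 higher, 4 each were higher without Control replicate 1 and with the GC and length trend removed, and none with upper-quartile scaling or the muscle score (median -0.008). The higher one was Prkaa1, a catalytic subunit of the energy sensor AMPK (log2 fold change 0.32 ± 0.11 (SE), adjusted p = 0.0361), whose log2 fold change was -0.01 with the muscle score as a covariate and whose call was lost without Control replicates 6 and 7, and the coactivator Ppargc1a was not called (-0.04, adjusted p = 0.872).

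In the citrate cycle, which feeds the chain with NADH and succinate, 1 of 19 genes was called, Ogdh, a subunit of the oxoglutarate dehydrogenase complex, higher (log2 fold change 0.56 ± 0.20 (SE), adjusted p = 0.0444; list median 0.09); without Control replicates 6 and 7 its adjusted p was 0.0991, and 6 of 17 fits with 1 mouse left out kept the call. Limma-voom called 4 genes of this list higher and 1 lower, and the muscle score as a covariate made 4 lower and 1 higher (median -0.12); upper-quartile scaling gave 1 lower and none higher (median -0.004). Electron carriers and other inlets had 2 lower and 3 higher of 19 (median 0.10); the higher calls were lost without Control replicates 6 and 7 and with upper-quartile scaling, limma-voom called 7 higher, and the muscle score as a covariate gave 6 lower and none higher (median -0.04, and -0.002 with upper-quartile scaling). Coq7 ranged from 30.6 to 59.0 CPM in Control mice (median 47.5) and from 24.1 to 35.0 CPM in GWI mice (median 29.0). Coq7, a hydroxylase of ubiquinone synthesis, had the smallest p of that list (log2 fold change -0.69 ± 0.13 (SE), adjusted p = 0.00157), and cytochrome c, Cycs, was not called (-0.16, adjusted p = 0.515). Carriers and uncouplers had 2 lower and none higher of 5 tested (median 0.03), Atpif1 and Slc25a4; Atpif1 kept its call in 11 of 17 fits with 1 mouse left out, and the median turned below 0 with the muscle score (-0.17), limma-voom (-0.08), upper-quartile scaling (-0.07), without the filter on low counts (-0.006), without Control replicates 6 and 7 (-0.02) and without Control replicate 9 (-0.01). The level of Slc25a4 was 185 CPM at the Control median (112 to 273) and 82.0 CPM at the GWI median (67.3 to 129). Slc25a4, the muscle form of the ADP/ATP carrier, was lower in GWI mice, 6 of which lay below every Control mouse (log2 fold change -1.06 ± 0.17 (SE), adjusted p = 0.000799), and the adjusted p was 0.054 with the muscle score as a covariate. Of 15 genes of the outer membrane and other mass markers, 2 were lower and 2 higher (median -0.00). Tomm20 and Cpt1a kept their calls in all 17 fits with 1 mouse left out, Tomm22 in 10 and Opa1 in 5, and with the muscle score as a covariate 4 were lower and none higher (median -0.18); the median was above 0 in 11 other fits, at most 0.14, with the GC and length trend removed. The smallest p was that of Cpt1a, which commits fatty acids to mitochondrial oxidation (log2 fold change 0.62 ± 0.13 (SE), adjusted p = 0.00422); with the muscle score as a covariate its adjusted p was 0.106.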

How the data were processed

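The deposited counts, made by the authors, were of uniquely placed reads per gene on GRCm38. Transcript lengths, GC content, overlaps and nuclear copies were taken from GENCODE M21. Trimmomatic 0.36 and STAR 2.5.2b are named in the submitters' processing notes, with featureCounts in the study's methods; the strand setting is not given in the sources used here. Genes were filtered with filterByExpr, libraries were scaled by the trimmed mean of M-values, and GWI was compared with Control by the robust quasi-likelihood test of edgeR 4.0.16 in R 4.3.3, with p-values adjusted over all tested genes. Alternatives used limma 3.58.1, DESeq2 1.42.0 and mgcv 1.9.3, the last to remove trends with GC content and length. Tables and figures were made with Python 3.11.15. Levels are CPM on scaled libraries, and SE is the standard error of the log2 fold change. The members with the smallest p or the highest level per length in each complex were named, with isoform pairs and list genes. Members and lists were chosen with earlier results of these data known. Some results are not reported here. No label states that each replicate was a separate animal, so p-values measure the spread between these samples; they are called mice here.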

Additional observations from a re-analysis of the deposited data

Results flagged for a closer look

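For 36 named OXPHOS genes and for the shares of counts in mtDNA and in nuclear OXPHOS genes, in each group, the mouse at either end was marked where its gap to the nearest other mouse, divided by the whole range, passed the 95% critical value of Dixon's test; chance flags about 1 in 20 groups. Of 76 groups 21 were marked, and in 19 the mouse was Control replicate 9. The genes share the same libraries, so the groups are not independent and the number marked cannot be set against that rate. Its CPM were the highest of the Control mice for mtDNA genes: mt-Atp6 78.8, mt-Atp8 21.3, mt-Co1 156779, mt-Co2 49.6, mt-Co3 73.8, mt-Cytb 35046, mt-Nd1 24355, mt-Nd3 92.3, mt-Nd4 8892, mt-Nd4l 39.9, mt-Nd6 2284. The same held for nuclear genes: Cox7c 547, Uqcr10 259.8, Ndufa2 156, Ndufaf2 39.5, Sdhd 451, Ndufa4 326, Cox7a2 452. For Cox6b2 it had the lowest Control value, 1.74 CPM. Among GWI mice, replicate 5 had the highest mt-Cytb, 12901 CPM, and replicate 1 the highest Cox4i2, 1.04 CPM. The cause was not tested.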

How the results depend on the processing

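With limma-voom 8076 genes were called in place of 3792, with 69 OXPHOS members lower, beside 29.5% of all genes, and 1 higher, beside 27.6%. With the DESeq2 Wald test it was 63 lower, beside 17.3%, and 1 higher, beside 15.3%. Upper-quartile scaling moved the median of all genes by -0.093 and made 28.9% of the calls higher in place of 49.8%, with 70 OXPHOS members lower, beside 21.2% of all genes. Removing the GC and length trend left 9 members lower. A block for the replicate number left 2241 calls, 63.1% of them higher, and 30 members lower, beside 5.84% of all genes, with an mtDNA median of -0.383. It left 12 of 38 nuclear members lower in complex I, 1 of 7 in its nuclear core, 4 of 9 in III, 3 of 15 in IV and 5 of 16 in V, 1 of 36 other assembly factors, and 3 of 10 smooth muscle markers. The block also turned the medians of the genes for mtDNA upkeep and expression (0.004), of carriers and uncouplers (-0.009) and of outer membrane and mass markers (0.064). Correlations between mice of the same number ran from -0.506 to 0.115, none was the best for its number, and the numbers do not pair the mice. Control replicate 9 has no GWI mouse of its number, so the block leaves it without weight in the comparison. The block is among the 11 alternative fits. Leaving out 1 mouse at a time gave 32 to 61 members lower, 2780 to 4818 calls over all genes, and medians of -0.352 to -0.258 for nuclear and -0.809 to -0.511 for mtDNA members. Without the filter on low counts 39 members were lower, beside 8.49% of all genes, and with at least 10 counts in every mouse 52, beside 15.1%.

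Over all tested members, 25 of 102 log2 fold changes turned sign with the GC and length trend removed, 11 of 103 with the muscle score, 6 with limma-voom, 4 with upper-quartile scaling and 2 with the block. Of the called members it was 2, Ndufa3 (0.02) and Uqcrb (0.06), both with that trend removed. Of other members named after their values were seen, Uqcrc2 turned with it (0.09), with limma-voom (0.08), with the block (0.022) and without Control 9 (0.021), Cyc1 with it (0.009) and in 7 fits with 1 mouse left out (at most 0.034), Ndufs1 with upper-quartile scaling (-0.015) and the muscle score (-0.27), Ndufv1 with upper-quartile scaling (-0.034) and limma-voom (-0.061), Uqcrc1 with limma-voom (-0.035) and Atp5a1 with upper-quartile scaling (-0.005).

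Among the genes named by the rule these turned sign. With the GC and length trend removed: mt-Atp6 0.038, mt-Atp8 0.191, mt-Co1 0.064, mt-Co2 0.073, Cox7a1 0.094, Cox6b2 0.14, Cox6a1 0.16, Cox6b1 0.029, Ppargc1a 0.095 and Cycs 0.098. With limma-voom: mt-Atp8 0.174, mt-Co1 0.069, Ppargc1a 0.066 and Cycs 0.042. With the muscle score: Ndufa4l2 0.564, Cox6b2 0.461, Cox6a1 0.055 and Prkaa1 -0.008. With the block: Ppargc1a 0.10 and Cycs 0.047. With upper-quartile scaling: Atp5b -0.008. Without Control replicates 6 and 7: Cox6b2 0.053. With 1 mouse left out, Cox6b2 ran from -0.119 to 0.004 (Control 6 or GWI 6), Cox6a1 from -0.104 to 0.005 (Control 2), Ppargc1a from -0.103 to 0.078 (above 0 without Control 2, Control 9 or GWI 2) and Cycs from -0.224 to 0.039 (Control 9). The cause was not tested.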
